A study of Homo sapiens with 18 samples.

Results

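The genes that define a plasma cell were followed through RSL3 treatment of myeloma cells. They are the transcription factors IRF4, PRDM1, POU2AF1, IKZF1 and IKZF3, the antibody production genes JCHAIN, IGLL5 and MZB1, and the B cell factors PAX5 and BCL6, which plasma cells normally silence. These 10 genes were chosen by symbol, and all 10 were found among the 43735 genes of the count table. The low-count filter kept 14281 genes for testing, among them 9 of the members, and removed PAX5.

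The libraries came from MM1S cells, a multiple myeloma line sensitive to glucocorticoids, and from MM1R cells, a resistant line of the same origin with a defective glucocorticoid receptor. In each line, some cells had no treatment, some were exposed to RSL3 (5 µM, 3 h), and some to Fer-1 (2 µM) during the 2 h that preceded the same dose of RSL3, all in medium with serum. RSL3 inhibits GPX4, the enzyme that removes lipid peroxides, and Fer-1 (ferrostatin-1) stops lipid peroxidation and ferroptotic death. Each of the 6 groups held 3 libraries, from passages 4, 6 and 7 of MM1R cells and passages 16, 22 and 23 of MM1S cells, named replicates 1, 2 and 3 in that order. No group with Fer-1 alone was analysed here.

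When a B cell becomes a plasma cell, PRDM1 (BLIMP-1) and IRF4 switch the cell to antibody secretion and shut down the B cell program, which PAX5 and BCL6 maintain. Myeloma is a cancer of plasma cells, and its cells depend on IRF4. IKZF1 (Ikaros) and IKZF3 (Aiolos) act upstream of IRF4 in these cells and are the proteins that immunomodulatory drugs such as lenalidomide send to degradation.

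The members lie at separate places in hg19. IRF4 is at chr6:391739-411443, PRDM1 at chr6:106441338-106557814 and IKZF1 at chr7:50343664-50472799, all on the plus strand. On the minus strand lie POU2AF1 (chr11:111222980-111326355), IKZF3 (chr17:37913971-38020565), JCHAIN (chr4:71521258-71547534), MZB1 (chr5:138723156-138725770), PAX5 (chr9:36833266-37034265) and BCL6 (chr3:187439165-187463513). IGLL5 is described with its sequence.

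Total counts per library were 17635438 to 19368343. Levels are given as CPM, counts scaled to a common library size with TMM factors, which correct for composition. Of the plasma cell markers, 10 of 10 passed the filter, with a summed level of 9729 to 19079 CPM. These markers include the members IRF4, PRDM1, MZB1, JCHAIN and POU2AF1. JCHAIN alone was at 4808 to 12657 CPM, so the sum is not a check apart from the members. Of the B cell markers, 5 of 10 passed, with 24.3 to 66.6 CPM in sum. Those that passed were the member BCL6 with CIITA, SPIB, EBF1 and BACH2. This list also holds the member PAX5, and its defining genes MS4A1 and CD22 had at most 3 counts in every library. The T cell, myeloid and stromal markers summed to at most 11.8, 1.35 and 21.8 CPM, and the defining genes CD3D, LYZ and DCN had at most 3 counts in every library. The T cell gene CD3E, the myeloid gene ITGAM and the stromal genes COL1A1 and PDGFRB passed the filter. The glucocorticoid receptor gene NR3C1 was lower in every MM1R library (13.8 to 50.3 CPM) than in any MM1S library (89.9 to 392 CPM). The highest of the MM1R values belonged to Fer-1+RSL3 replicate 2, against 16.9 and 15.3 CPM in the other libraries of its group. Over 33 genes at least 8-fold higher in MM1S cells, that library was placed between the mean of the other MM1R libraries and the MM1S mean. Its median position was 45.3% of the way from the MM1R mean to the MM1S mean (quartiles 41.2 and 51.6%). This library stood apart from its label. The tests of Fer-1+RSL3 that a named gene passed, with or without the replicate block described below, are therefore also given without it.

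IGLL5 needs its sequence shown first, since its counts cannot be assigned to 1 locus. IGLL5 lies at chr22:23229960-23238291 of hg19, on the plus strand, and overlaps the lambda constant gene IGLC1 and the joining segment IGLJ1. The coding part of IGLC1 (chr22:23237555-23237871) is also part of the IGLL5 coding sequence. The first 90 bases of the coding sequence of 4 lambda constant genes are printed 5′ to 3′ from the plus strand of hg19, with capitals where a base differs from IGLC1.
IGLC1 (chr22:23237555-23237644): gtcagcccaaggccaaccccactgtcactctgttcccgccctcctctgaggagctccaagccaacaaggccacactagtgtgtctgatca
IGLC2 (chr22:23243156-23243245): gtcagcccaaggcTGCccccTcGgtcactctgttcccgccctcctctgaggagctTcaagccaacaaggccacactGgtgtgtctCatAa
IGLC3 (chr22:23248512-23248601): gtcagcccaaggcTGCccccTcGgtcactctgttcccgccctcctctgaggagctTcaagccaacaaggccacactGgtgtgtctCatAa
IGLC7 (chr22:23264766-23264855): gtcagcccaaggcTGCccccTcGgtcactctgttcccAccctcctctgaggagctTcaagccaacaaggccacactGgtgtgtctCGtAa
Over these bases IGLC2, IGLC3 and IGLC7 differ from IGLC1 at 9, 9 and 11 positions. Over the 317 coding bases the differences number 15, 14 and 19, so that the genes are 95.3, 95.6 and 94.0% identical to IGLC1. Of the 268 stretches of 50 bases in IGLC1, the length of 1 read, 41 occur unchanged in IGLC2, 41 in IGLC3 and 15 in IGLC7. The sources used here do not name the counting tool or say how reads that fit several genes were counted. What is called the IGLL5 level below may therefore hold reads of rearranged lambda light chain transcripts. Of 18 other immunoglobulin genes looked up by symbol, 3 matched a row of the table and none of these passed the filter, and the other 15 were not analysed here.

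In untreated cells the antibody production genes led the order and the B cell factors closed it. The order was set by CPM per kb of exon length, which allows different genes to be compared, over 12732 genes with a known length. IGLL5 ranked 1st in both lines, with 19158 ± 1608 CPM per kb in MM1R cells and 11425 ± 4497 in MM1S cells (SD, n = 3). JCHAIN, whose protein joins IgA and IgM antibodies into polymers, ranked 2nd, with 7719 ± 621 and 4189 ± 492 CPM per kb. IGLL5 alone took 1.08 to 2.72% of all counts of a library, and JCHAIN took 0.500 to 1.31%. MZB1, a chaperone of the endoplasmic reticulum that helps antibody assembly, followed at ranks 65 and 72, with 361 ± 30 and 298 ± 87.7 CPM per kb.

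Among the transcription factors, IRF4 stood highest, at ranks 152 and 148, with 186 ± 20.4 CPM per kb in MM1R cells and 174 ± 34.6 in MM1S cells. POU2AF1 (OBF-1), the B cell coactivator of the OCT factors, had 77.1 ± 5.65 and 75.9 ± 14.7 CPM per kb, and PRDM1 had 70.1 ± 4.13 and 62.5 ± 10.2. The libraries of POU2AF1 and PRDM1 overlapped in both lines, so these neighbours were not separated. IKZF3 (24.1 ± 2.46 CPM per kb) stood above IKZF1 (18.6 ± 3.04) in MM1R cells without overlap, whereas in MM1S cells their values of 18.5 ± 4.86 and 19.1 ± 0.572 overlapped. BCL6, a repressor that keeps germinal centre B cells from becoming plasma cells, was at 0.230 ± 0.0486 and 0.220 ± 0.143 CPM per kb, at ranks 11275 and 11276.

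**Figure D1:**
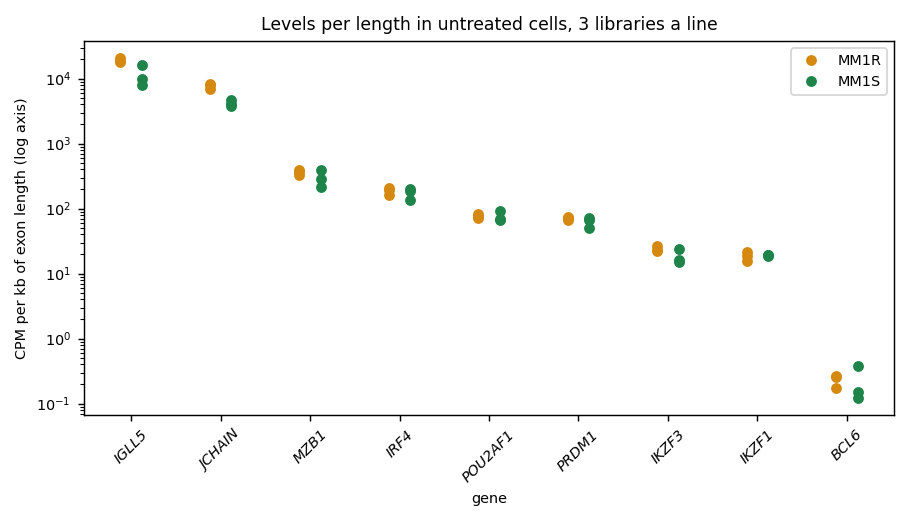
Levels of the 9 genes that passed the filter in untreated cells, in CPM per kb of exon length on a log axis, with 1 point for each of the 3 libraries of MM1R and of MM1S cells. IGLL5 and JCHAIN lie above all other members, and BCL6 lies far below them.

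PAX5, the factor that fixes B cell identity, had 0 to 9 counts per library. It had 0 counts in 5 of the 18 libraries and at most 3 counts in 16. A count of 0 allows up to 3 counts, which is 0.150 to 0.197 CPM depending on the library. The highest PAX5 level was 0.455 CPM, in 1 MM1R library with Fer-1+RSL3. PAX5 was therefore not detectable above this floor in most libraries, and no comparison of it is made.

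The plot of levels by library shows all 10 genes before any model is applied.

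**Figure D2:**
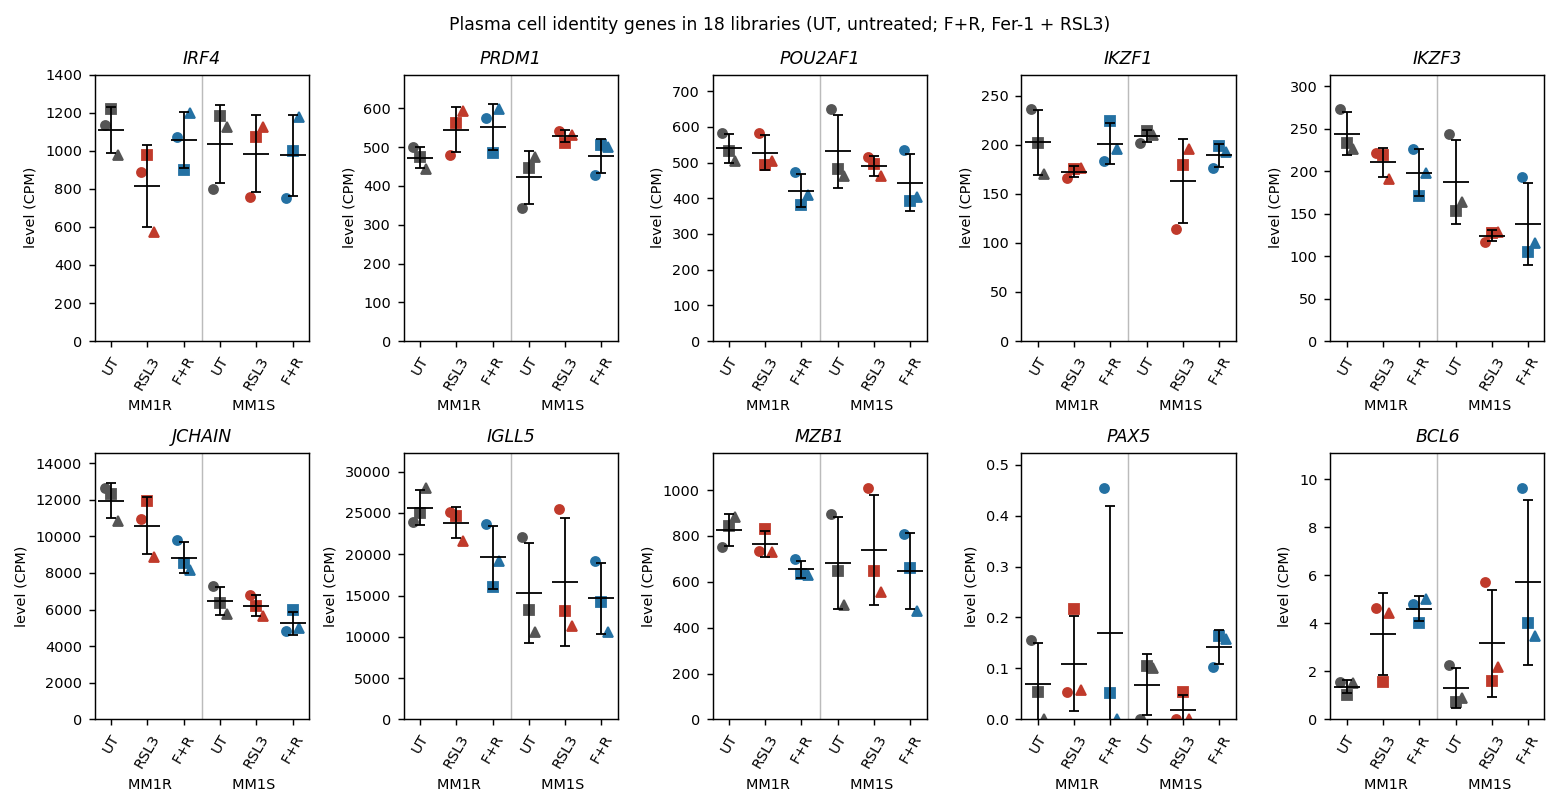
Level of each gene in CPM (linear axes from 0) in the 18 libraries, with circles, squares and triangles for replicates 1, 2 and 3, and bars for the mean and SD of each group of 3. The MM1R groups lie above the MM1S groups for JCHAIN, and the untreated groups of both lines lie lowest for BCL6.

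Untreated MM1R and MM1S cells were compared to see whether the lines differ in plasma cell identity before treatment. The JCHAIN level was 12657, 12300 and 10844 CPM in the untreated MM1R libraries, and it was 7282, 6376 and 5772 CPM in the MM1S libraries. Every MM1R library stood above every MM1S library. The JCHAIN level was 1.84-fold higher in MM1R cells (log2 fold change 0.88, 95% interval 0.59 to 1.17, FDR 0.000878 by the quasi-likelihood test of edgeR, adjusted with Benjamini-Hochberg over all genes tested). A differentially expressed gene (DEG) had to pass 2 limits, FDR < 0.05 and a change of more than 1 log2 unit either way, so JCHAIN passed the first limit only. No member was a DEG between the untreated lines, where 4.64% of all genes tested were, and 1 of 9 passed the FDR alone, where 10.5% of all genes did. The members had 2 unadjusted p-values under 0.05.

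Untreated MM1R cells had an IGLL5 level of 23940, 24946 and 28070 CPM, and untreated MM1S cells one of 22073, 13265 and 10556 CPM. The groups did not overlap, but passage 16 of MM1S cells came close to the MM1R libraries. The log2 fold change of 0.75 (0.12 to 1.37) had an FDR of 0.125. Without MM1S untreated replicate 1, which is passage 16, it was 1.10 with an FDR of 0.0287, and IGLL5 was then a DEG. JCHAIN and IGLL5 were 2 of 9 members whose libraries did not overlap between the lines, against 32.4% of all genes tested. For the other 7 members, the difference between the lines spanned 0 in its 95% interval. The widest such interval was that of BCL6 (-1.15 to 1.29) and the interval of IRF4 was -0.36 to 0.56, so that differences within these bounds were not detectable.

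Passage 16 of MM1S cells also stood apart with respect to other members, whatever the treatment. In its 3 libraries IGLL5 was at 19183 to 25515 CPM, against 10556 to 14164 CPM in the 6 libraries of passages 22 and 23. MZB1 was at 807 to 1011 CPM, against 474 to 662 CPM. POU2AF1 was at 514 to 649 CPM, against 392 to 495 CPM. IRF4 went the other way, at 754 to 801 CPM against 997 to 1184 CPM. These were 4 of 9 members without overlap, where 18.1% of all genes tested had none. Passage 23 was the lowest of the MM1S passages for IGLL5 (10556 to 11317 CPM, against 13141 CPM or more) and MZB1 (474 to 557 CPM, against 646 CPM or more), 2 of 9 members against 8.68% of all genes. No passage of MM1R cells was set apart for any member, but the share of all genes is not given for those passages. Passage numbers are not shared between the lines, so line and passage cannot be told apart in the comparison above.

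The comparison of RSL3 with untreated cells asks whether early ferroptotic stress alters plasma cell identity. BCL6 rose with RSL3, from a very low level, and was the one member to become a DEG when both lines were averaged. Without the replicate block described below, no member was a DEG in either line alone. The other members tested kept levels far above that of BCL6. The members were read against the background of each comparison. DEGs numbered 0 of 9 members in MM1R cells, 0 of 9 in MM1S cells and 1 of 9 in the averaged comparison, where 1.20%, 1.61% and 3.24% of all genes tested were DEGs. By FDR alone, 1 of 9 members passed in the averaged comparison, against 15.5% of all genes. The lowest FDR of a member was 0.187 in MM1R cells and 0.117 in MM1S cells, with 1 and 4 unadjusted p-values under 0.05.

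In MM1R cells BCL6 was at 1.56, 1.035 and 1.51 CPM untreated and at 4.62, 1.57 and 4.44 CPM with RSL3. In MM1S cells it was at 2.28, 0.731 and 0.903 CPM untreated and at 5.72, 1.60 and 2.19 CPM with RSL3. The RSL3 level was higher than the untreated level in 6 of 6 passages, by 0.55 to 1.51 on the log2 scale. The groups were apart in MM1R cells and overlapped in MM1S cells, where passage 16 was highest under every treatment. These values rest on 14 to 186 counts per library. In a culture, more cells with a transcript and more of it per cell cannot be told apart.

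Averaged over the lines, BCL6 rose 2.49-fold with RSL3 (log2 fold change 1.32, 95% interval 0.49 to 2.14, FDR 0.0315, edgeR). Within a line the rise was 1.37 (0.21 to 2.53, FDR 0.187) in MM1R cells and 1.26 (0.09 to 2.43, FDR 0.220) in MM1S cells, which did not pass. With the passage as a replicate block, which compares libraries of the same passage, the values were 1.32 with FDR 0.00611 and 1.25 with FDR 0.0106, and BCL6 was a DEG in both lines, against 2.87% and 2.71% of all genes. The averaged call was lost without any 1 of 8 libraries: MM1R RSL3 replicates 1 and 3, the 3 MM1R untreated libraries, MM1S RSL3 replicate 1, and MM1S untreated replicates 2 and 3. The log2 fold change then lay between 0.96 and 1.37, with FDRs of 0.0516 to 0.0960.

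IRF4 had its lowest level of all in 1 RSL3 library. In MM1R cells it was at 1136, 1218 and 979 CPM untreated and at 891, 979 and 573 CPM with RSL3. In MM1S cells it was at 801, 1184 and 1123 CPM untreated and at 756, 1073 and 1127 CPM with RSL3. The MM1R groups lay just apart and the MM1S groups overlapped nearly completely. The log2 fold change was -0.45 (-0.91 to 0.01, FDR 0.283) in MM1R cells, -0.07 (-0.53 to 0.38, FDR 0.897) in MM1S cells, and -0.26 (-0.58 to 0.06, FDR 0.272) averaged, so IRF4 did not pass. With the replicate block and without MM1R Fer-1+RSL3 replicate 2, an alternative chosen after seeing the data, it passed the FDR alone in MM1R cells (-0.47, FDR 0.0269) and averaged (-0.27, FDR 0.0310), but not the limit on the fold. With the block and all libraries the FDRs were 0.0630 and 0.0766. RSL3 was lower than untreated in 5 of 6 passages, by as much as 0.77 in MM1R passage 7. The library of that passage, MM1R RSL3 replicate 3, also had the highest levels of the heat shock gene HSPA6 (1386 CPM) and the heme oxygenase gene HMOX1 (1404 CPM) of its group, where the other libraries had 92.5 to 176 and 237 to 243 CPM. Other libraries differed in this respect. MM1R Fer-1+RSL3 replicate 3, of the same passage, had 550 CPM of HSPA6 and 1463 CPM of HMOX1, with IRF4 at 1196 CPM. In MM1S RSL3 replicate 1, HSPA6 was at 4321 CPM and HMOX1 at 2298 CPM, and IRF4 differed from untreated by -0.08 on the log2 scale. The part of the stress response in the IRF4 level was not tested.

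PRDM1 was at 500, 476 and 445 CPM in untreated MM1R cells and at 480, 563 and 592 CPM with RSL3. In MM1S cells it was at 344, 446 and 476 CPM untreated and at 541, 511 and 532 CPM with RSL3, without overlap. The PRDM1 difference in MM1S cells was 0.65 on the log2 scale at passage 16, and 0.20 and 0.16 at passages 22 and 23. The averaged log2 fold change was 0.26 (0.07 to 0.45) with an FDR of 0.0559, just outside the threshold. PRDM1 overlaps ATG5 on the other strand, and the use of strand in the counting is not given in the sources used here.

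The Ikaros genes were the members nearest to the threshold on the lower side. IKZF3 was at 273, 234 and 227 CPM in untreated MM1R cells and at 221, 220 and 191 CPM with RSL3. In MM1S cells it was at 244, 154 and 164 CPM untreated and at 117, 128 and 128 CPM with RSL3. In both lines every RSL3 library lay below every untreated library. The averaged log2 fold change was -0.40 (-0.71 to -0.10, FDR 0.0661), and within MM1S cells it was -0.59 (-1.02 to -0.16, FDR 0.117).

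IKZF1 was at 236, 202 and 170 CPM in untreated MM1R cells and at 166, 175 and 176 CPM with RSL3. In MM1S cells it was at 202, 214 and 210 CPM untreated and at 114, 179 and 196 CPM with RSL3, without overlap. The lowest value, at passage 16, belonged to MM1S RSL3 replicate 1, which had the highest HSPA6 (4321 CPM) and HMOX1 (2298 CPM) of all libraries. The averaged log2 fold change was -0.29 (-0.53 to -0.06, FDR 0.0858). MM1R RSL3 replicate 3, with the highest HSPA6 and HMOX1 of its group, had the highest IKZF1 level of that group (176 CPM, 0.06 above untreated on the log2 scale). The part of the stress response in the IKZF1 level was not tested.

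With the replicate block, 3 further members passed the FDR in the averaged comparison, and none of them passed the limit on the fold. PRDM1 then rose by 0.27 (FDR 0.0213), IKZF1 fell by 0.30 (FDR 0.0295) and IKZF3 fell by 0.38 on the log2 scale (FDR 0.0182). With BCL6 these were 4 of 9 members, against 30.4% of all genes tested. In MM1S cells alone, IKZF3 also fell with the block (log2 fold change -0.54, FDR 0.0354), and with BCL6 it made 2 of 9 members against 13.3% of all genes. The IKZF3 difference was -1.06 at passage 16, and -0.27 and -0.36 at passages 22 and 23. Without the block and with 1 library left out, the log2 fold change of IKZF3 in MM1S cells lay between -0.71 and -0.36. The FDRs were then 0.0467 to 0.395.

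No antibody production gene passed the test with RSL3. JCHAIN was at 10919, 11944 and 8889 CPM in MM1R cells with RSL3, and at 6773, 6195 and 5663 CPM in MM1S cells with RSL3. It was lower than untreated in 6 of 6 passages, by 0.03 to 0.29 on the log2 scale, and the averaged log2 fold change was -0.12 (-0.32 to 0.09, FDR 0.460). The averaged differences of IGLL5 (0.01, -0.43 to 0.45) and MZB1 (0.00, -0.33 to 0.34) lay next to 0, and so did that of POU2AF1 (-0.07, -0.29 to 0.14). A change of 2-fold in any of these 4 genes lies outside its interval.

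Counted by libraries that did not overlap, 3 of 9 members in MM1R cells and 3 of 9 in MM1S cells were apart between RSL3 and untreated cells, against 25.7% and 24.9% of all genes. These were BCL6, IRF4 and IKZF3 in MM1R cells and PRDM1, IKZF1 and IKZF3 in MM1S cells. In the same direction in 6 of 6 passages were BCL6, IKZF3 and JCHAIN, 3 of 9 members against 28.6% of all genes. These shares lie near the background.

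The effect of RSL3 was also compared between the lines by an interaction term. No member differed, as none of all genes tested did (0%), and no unadjusted p-value of a member was under 0.05. The interval of the difference between the lines was -1.02 to 0.27 for IRF4, -0.23 to 0.98 for IKZF3 and -1.54 to 1.76 for BCL6 on the log2 scale. Differences within these bounds were not detectable with 3 libraries a group.

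Libraries with Fer-1 pre-treatment were set against those with RSL3 alone. Pre-treatment did not lower HMOX1 and HSPA6 throughout. HMOX1 was at 748, 685 and 1463 CPM with Fer-1+RSL3 in MM1R cells, against 237, 243 and 1404 CPM with RSL3 alone. In MM1S cells it was at 1220, 1142 and 975 CPM, against 2298, 310 and 434.5 CPM. HSPA6 was at 301, 321 and 550 CPM in MM1R cells, against 175.5, 92.45 and 1386 CPM. Its MM1S values were 1256, 522 and 344.5 CPM, against 4321, 64.5 and 82.75 CPM. Whether a change depends on lipid peroxidation was not tested. No member was a DEG between Fer-1+RSL3 and RSL3 in MM1R cells (lowest FDR 0.784, 1 unadjusted p-value under 0.05), in MM1S cells (0.880, 0 under 0.05) or averaged (0.296, 2 under 0.05). Of all genes tested, 0%, 0% and 0.0560% were DEGs. BCL6 stayed above the untreated level: with Fer-1+RSL3 its MM1R libraries held 4.80, 4.005 and 5.03 CPM and its MM1S libraries 9.64, 3.99 and 3.46 CPM. These levels were higher than with RSL3 alone in 6 of 6 passages, by 0.05 to 1.29 on the log2 scale, and the averaged log2 fold change was 0.62 (-0.14 to 1.39, FDR 0.500). The difference of 1.29 was at MM1R passage 6, whose Fer-1+RSL3 library is the one that stood apart from its label. The IRF4 level with Fer-1+RSL3 was 1071, 901 and 1196 CPM in MM1R cells, and 754, 997 and 1175 CPM in MM1S cells. The largest difference from RSL3 alone was 1.06 on the log2 scale at MM1R passage 7, and the log2 fold change of IRF4 in MM1R cells was 0.38 (-0.08 to 0.83, FDR 0.843). Without MM1R Fer-1+RSL3 replicate 2 it was 0.48 (FDR 1.0), and the averaged value of BCL6 was 0.67 (FDR 0.588).

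JCHAIN was lower with Fer-1+RSL3 than with RSL3 alone in 6 of 6 passages. Together with BCL6 it made 2 of 9 members with 1 direction throughout, against 14.6% of all genes. Its averaged log2 fold change was -0.25 (-0.45 to -0.05, FDR 0.296), and that of POU2AF1 was -0.23 (-0.45 to -0.02, FDR 0.350). With the replicate block, POU2AF1 (-0.24, FDR 0.0477) and BCL6 (0.67, FDR 0.0439) passed the FDR, 2 of 9 members against 2.37% of all genes, and neither passed the limit on the fold. Without MM1R Fer-1+RSL3 replicate 2 both calls were lost, as POU2AF1 was at -0.22 (FDR 0.109) and BCL6 at 0.55 (FDR 0.0860) with the block.

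Fer-1+RSL3 was then set against untreated cells, a comparison added after the data had been seen, which shares its untreated libraries with the comparison of RSL3. BCL6 rose 3.83-fold when the lines were averaged (log2 fold change 1.94, 1.12 to 2.75, FDR 0.00226), with a rise of 1.56 to 2.29 on the log2 scale in 6 of 6 passages. Without MM1R Fer-1+RSL3 replicate 2 it was 1.98 (FDR 0.00418). The rise was 1.75 (0.59 to 2.91, FDR 0.0551) in MM1R cells, which passed with the replicate block (1.78, FDR 0.000495). Without replicate 2 of the MM1R Fer-1+RSL3 group these values were 1.84 (FDR 0.0981) and, with the block, 1.52 (FDR 0.00259). It was 2.12 (0.97 to 3.28, FDR 0.0346) in MM1S cells (FDR 0.0432 without that MM1R library), and this call was lost without MM1S Fer-1+RSL3 replicate 1 (1.51, FDR 0.179), MM1S untreated replicate 2 (1.84, FDR 0.149) or replicate 3 (1.92, FDR 0.139). DEGs numbered 0 of 9 members in MM1R cells, 1 of 9 in MM1S cells and 1 of 9 averaged, against 2.16%, 1.37% and 2.96% of all genes, and with the block 1 of 9 in MM1R cells against 3.65%.

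JCHAIN fell with Fer-1+RSL3 when the lines were averaged. Within a line and without the replicate block it did not pass (FDR 0.0573 in MM1R cells and 0.242 in MM1S cells). It was at 9796, 8549 and 8169 CPM in MM1R cells, below every untreated library of that line, and at 4808, 5980 and 4981 CPM in MM1S cells, where the groups overlapped. The averaged log2 fold change was -0.37 (-0.57 to -0.16, FDR 0.0138), and it was lower in 6 of 6 passages. Without MM1R Fer-1+RSL3 replicate 2 it was -0.36 (FDR 0.0311).

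POU2AF1 was at 582, 532 and 504 CPM in untreated MM1R cells and at 472, 382 and 409 CPM with Fer-1+RSL3, without overlap. In MM1S cells it was at 649, 482 and 462 CPM untreated and at 536, 392 and 404 CPM with Fer-1+RSL3. Within a line and without the replicate block it did not pass (FDR 0.1365 in MM1R cells and 0.362 in MM1S cells). It fell by 0.31 averaged over the lines (0.09 to 0.53 lower, FDR 0.0439) and was lower in 6 of 6 passages. Without MM1R Fer-1+RSL3 replicate 2 the log2 fold change was -0.28 with an FDR of 0.0982. The FDR was over the threshold without any 1 of 10 libraries, with log2 fold changes of -0.23 to -0.32 and FDRs up to 0.119.

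By FDR alone, BCL6, JCHAIN and POU2AF1 made 3 of 9 members in the averaged comparison, against 19.0% of all genes. With the replicate block, IKZF3 (log2 fold change -0.38, FDR 0.0157) and MZB1 (-0.20, FDR 0.0292) passed as well, which made 5 of 9 against 33.3% of all genes. In MM1R cells with the block, 5 of 9 members passed the FDR, against 22.2%: BCL6 was higher, and POU2AF1, JCHAIN, IGLL5 (-0.40, FDR 0.0345) and MZB1 (-0.33, FDR 0.0191) were lower. IGLL5 was at 23680, 16042 and 19125 CPM and MZB1 at 698, 635 and 630 CPM in MM1R cells with Fer-1+RSL3, all below the untreated libraries of that line. Without replicate 2 of that group, the log2 fold change of IGLL5 in MM1R cells was -0.26 in place of -0.39. With the block and without that library, BCL6 alone of these 5 passed in MM1R cells, where the FDRs of POU2AF1, JCHAIN, IGLL5 and MZB1 were 0.0532, 0.0565, 0.203 and 0.111. In the averaged comparison IKZF3 (-0.33, FDR 0.0515) and MZB1 (-0.17, FDR 0.0886) were then lost, while BCL6, JCHAIN and POU2AF1 passed, and PRDM1 (0.25, FDR 0.0356) did so as well.

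Libraries did not overlap between Fer-1+RSL3 and untreated cells for 6 of 9 members in MM1R cells and 2 of 9 in MM1S cells, against 30.6% and 28.3% of all genes. The direction was the same in 6 of 6 passages for 5 of 9 members (PRDM1 higher, POU2AF1, IKZF3 and JCHAIN lower, BCL6 higher), against 33.1% of all genes.

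**Figure D3:**
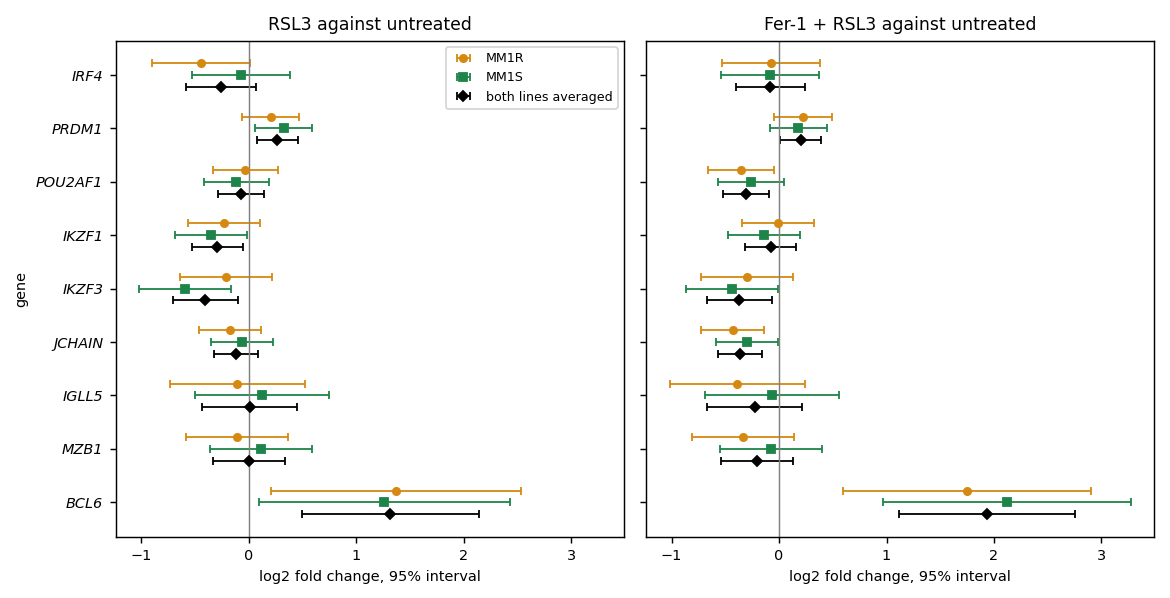
Log2 fold change of the 9 genes tested, with 95% intervals, for RSL3 and for Fer-1+RSL3 against untreated cells, in MM1R cells (circles), MM1S cells (squares) and averaged over both (diamonds). BCL6 lies to the right of 0 in both panels (1.32 and 1.94 averaged), and the averaged intervals of JCHAIN and POU2AF1 lie left of 0 with Fer-1+RSL3 and span 0 with RSL3.

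The untreated, RSL3 and Fer-1+RSL3 libraries of 1 passage can be set side by side. Fer-1 came before RSL3, so Fer-1+RSL3 is not a later step than RSL3 alone. In 6 of 6 passages BCL6 was higher with RSL3 than untreated, and higher with Fer-1+RSL3 than with RSL3 alone. JCHAIN was lower in both of these comparisons in 6 of 6. The comparisons share the RSL3 libraries. Taken singly, 28.6% and 14.6% of all genes had 1 direction in 6 of 6 passages, and the share for both together was not computed. MM1R passage 6 includes the Fer-1+RSL3 library that stood apart from its label. IKZF1 was higher with Fer-1+RSL3 than with RSL3 alone in 5 of 6 passages, and IKZF3 in 3 of 6.

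**Figure D4:**
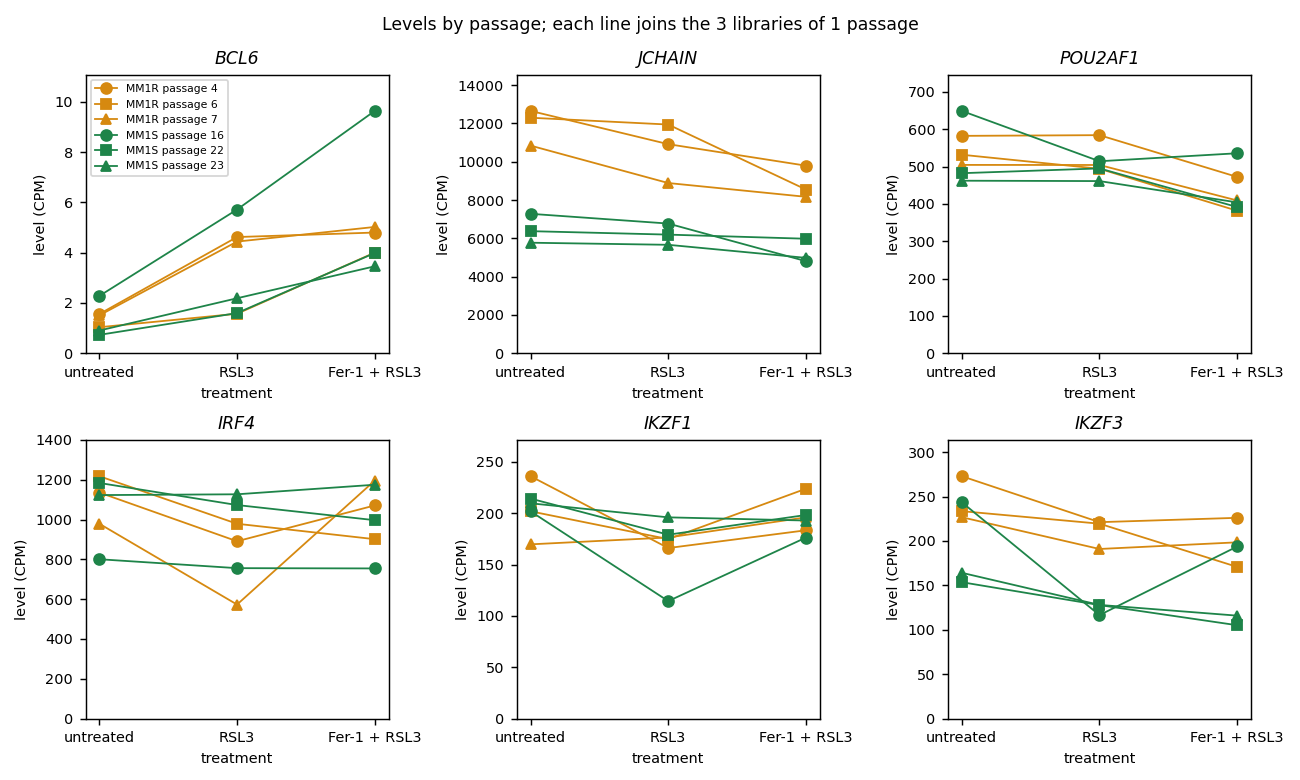
Level in CPM (linear axes from 0) of 6 genes in untreated, RSL3 and Fer-1+RSL3 libraries, with 1 line for each passage of MM1R (orange) and MM1S (green) cells. All 6 BCL6 lines run upward and all 6 JCHAIN lines run downward, and the IRF4 line of MM1R passage 7 dips to 573 CPM with RSL3 alone.

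The members moved together in part within groups. Over the 18 libraries, the deviations of log2 CPM from the group means had a Pearson r of 0.955 between IGLL5 and MZB1, 0.893 between POU2AF1 and IKZF3, and -0.778 between IRF4 and BCL6. Libraries of 1 passage share their cells, and passage 16 of MM1S cells stands apart for several of these genes, so these values are descriptions only.

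Genes among the 3 with the most similar pattern over the 18 libraries, by Pearson r of log2 CPM, are given for each member, as a description. For IRF4 these were LIX1L, RRN3 and ERI1 (r = 0.793, 0.758 and 0.746), and for PRDM1 they were C6orf62, PTPN1 and FTL (0.842, 0.836 and 0.800). For POU2AF1 they were DGKD, CPT1A and SYNDIG1 (0.857, 0.846 and 0.846). Near IKZF1 were ZMYM4 and MAPK14 (0.943 and 0.897), and IKZF3 was nearest to JAKMIP2, LOC100420587 and CSGALNACT1 (0.952, 0.951 and 0.943). JCHAIN was nearest to TM7SF2, HBD and TRPV2 (0.968, 0.966 and 0.955), IGLL5 to IL32, IL2RG and SH3TC1 (0.972, 0.968 and 0.966), and MZB1 to FERMT3 and GSTK1 (0.927 and 0.919). BCL6 was nearest to ALOX12P2, EAPP and KLF7 (0.937, 0.917 and 0.913). Unlike the deviations used for the member pairs above, these values include the differences between lines and treatments. For JCHAIN and IKZF3, r was 0.751 by log2 CPM and 0.153 by deviations from the group means.

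Other genes of the plasma cell program moved in both directions with RSL3. Of 18 genes tested for the plasma cell surface and transcription, 3 rose and 2 fell by FDR in the averaged comparison, and none was a DEG, where 15.5% of all genes passed the FDR and 3.24% were DEGs. The median log2 fold change was 0.09, against 0.00 over all genes. SDC1 (CD138, the surface marker of plasma cells) fell by 0.45 (FDR 0.0113) and TNFRSF17 (BCMA, a receptor for survival signals) fell by 0.53 (FDR 0.0155). CD38, an ectoenzyme of the cell surface, rose by 0.54 (FDR 0.0408), ERN1 (IRE1, a sensor of unfolded proteins) by 0.54 (FDR 0.00451) and TENT5C, a poly(A) polymerase, by 0.47 (FDR 0.0129). SDC1 was at 765 to 925 CPM in untreated MM1R cells and at 554 to 700 CPM with RSL3, and the corresponding ranges in MM1S cells were 644 to 682 and 371 to 578 CPM. In both lines the ranges were apart, as they were for 25.7% and 24.9% of all genes tested. In MM1R or MM1S cells alone, 0 of the 18 genes passed the FDR with RSL3. Of all 14281 genes tested, 480 and 524 did. With Fer-1+RSL3 against untreated cells, SDC1 (-0.60, FDR 0.00109) and TNFRSF17 (-0.78, FDR 0.000867) fell and CD38 (0.73, FDR 0.00649) and ERN1 (0.70, FDR 0.000477) rose. These were averaged over the lines, and 19.0% of all genes passed the FDR there. These 4 calls held without MM1R Fer-1+RSL3 replicate 2 (FDRs of 0.00251, 0.00118, 0.0191 and 0.000437). TENT5C did not pass there (-0.15, FDR 0.417), with means of 1079, 1628 and 1071 CPM in untreated, RSL3 and Fer-1+RSL3 libraries of MM1R cells and 942, 1203 and 773 CPM in those of MM1S cells.

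Of the mature and germinal centre B cell genes, 19 of 30 passed the filter. With RSL3, averaged over the lines, BACH2 was a DEG on the higher side and BCL11A on the lower side, where 3.24% of all genes were DEGs. TCF3 also passed the FDR, on the lower side (-0.54, FDR 0.00175), where 15.5% of all genes passed. The list's median was -0.12 against 0.00 over all genes. In MM1R or MM1S cells alone, 0 of these 19 genes passed the FDR on the higher side. BACH2, a repressor that holds back plasma cell differentiation, rose by 1.20 (FDR 0.00923), from 1.27 to 6.64 CPM across untreated libraries to 7.75 to 17.6 CPM with RSL3. BCL11A, a repressor of early B cells, fell by 1.29 (FDR 0.00221), from 18.3 to 19.3 CPM to 7.80 to 10.9 CPM in MM1R cells. Both were also DEGs in the averaged comparison of Fer-1+RSL3 with untreated cells (BACH2 1.04, FDR 0.0162, and BCL11A -1.28, FDR 0.00158), where 2.96% of all genes were. Within a line BACH2 did not pass with Fer-1+RSL3 (FDR 0.0898 in MM1R cells and 0.197 in MM1S cells). In MM1R cells with Fer-1+RSL3, CD83, an activation marker, was also a DEG (1.68, FDR 0.0280), where 2.16% of all genes were. Without MM1R Fer-1+RSL3 replicate 2, BCL11A was a DEG (-1.20, FDR 0.00514), BACH2 passed the FDR but not the limit on the fold (0.99, FDR 0.0354), and the CD83 call was lost (1.73, FDR 0.0615).

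Between the untreated lines the B cell list held 5 DEGs of 19 tested, against 4.64% of all genes, all of them higher in MM1R cells. BTK, the kinase of the B cell receptor pathway, was at 61.0 to 67.0 CPM in MM1R cells, where MM1S cells had 7.83 to 10.9 CPM (2.83 on the log2 scale, FDR 1.36e-07). The receptor chains CD79A (4.11, FDR 0.000461) and CD79B (1.06, FDR 0.0161), BCL11A (1.23, FDR 0.0261) and BLK (3.97, FDR 0.0177) were also higher. By FDR alone, 7 genes of the list were higher and 2 were lower in MM1R cells, where 10.5% of all genes passed. CD79A and BLK are at most 5 and 2 counts in the untreated MM1S libraries, so their fitted folds are uncertain in size. Of the plasma cell list, DERL3 (1.09, FDR 0.00719) was higher and CD38 (-1.06, FDR 0.0112) lower in MM1R cells.

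Among the partner factors of IRF4, the Ikaros proteins and the OCT proteins, 2 of 19 rose and 5 fell with RSL3 by FDR in the averaged comparison, against 15.5% of all genes, and the list's median was -0.22. POU2F2 (OCT2, which POU2AF1 binds) fell by 0.79 (FDR 0.00802). CHD4, the remodeller of the NuRD complex that Ikaros proteins recruit, fell by 0.44 (FDR 0.00186), and the NuRD genes MTA2 (-0.33, FDR 0.0290) and HDAC2 (-0.30, FDR 0.0424) and the factor IRF2 (-0.36, FDR 0.00657) passed in the same direction. The Ikaros relatives IKZF2 (0.71, FDR 0.0477) and IKZF5 (0.36, FDR 0.0204) rose. Of the ubiquitin ligase through which immunomodulatory drugs act and its targets, 1 of 9 genes passed with RSL3, against the same background: GLUL, glutamine synthetase, rose by 0.46 (FDR 0.00982).

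Of the markers of other cells, COL1A1, a collagen of stromal cells, was a DEG with RSL3 in the averaged comparison (1.94, FDR 0.0398). Its level was 19.5 CPM at most, in 1 of the 3 MM1S RSL3 libraries, and 0.452 to 3.93 CPM in every other untreated and RSL3 library, with COL1A2, COL3A1 and DCN at no more than 3 counts throughout.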

How the data were processed

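The RNA was sequenced in pairs of 50 bp reads. Per the labels and the study's methods, the authors checked reads with FastQC 0.11.5, aligned them to hg19 with STAR 2.7.3a and used DESeq2. They deposited raw read counts for 43735 genes, used for all tests, and a normalized signal for 29553 genes, in which the authors scaled every count with 1 size factor per library. The counting tool, annotation and strand are not given in the sources used here. Positions and exon lengths were joined by symbol from an hg19 annotation.

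Genes were filtered with filterByExpr (minimum count 10) and tested with edgeR 4.0.16 (R 4.3.3), TMM factors and 1 model of 6 group means over all 18 libraries. DEGs met FDR < 0.05 and differed by more than 1 log2 unit. The steps were tested on simulated data. Alternatives were DESeq2 1.42.0, limma 3.58.1 on the normalized values (pseudocount 1), RLE and upper-quartile scaling, other filters, no limit on the fold, only the groups compared, the passage as a replicate block, and leaving out each library.

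The passage in the labels pairs libraries within a line. Within a passage, the libraries' deviations from the means of their groups correlated with a median of 0.250 (0.0338 to 0.516, 9 pairs) in MM1R cells and 0.416 (0.216 to 0.681, 9 pairs) in MM1S cells. No label says more on how the cultures were kept apart. The p-values of the model without the block therefore measure the spread between passages, which may be technical in part. Those of the replicate block measure how far the treatment differences vary from passage to passage. Replicates differed by more than counting noise (chi-square per degree of freedom 7.59 to 155). The highest values, 133 and 155, set MM1S RSL3 replicate 1 against replicates 2 and 3 of its group, which had 7.59 between them.

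All members, up to 5 genes of each list by FDR, and the 3 genes most alike each member are named, except a few genes that are not reported here. The members and lists were chosen with earlier results of these data known. All columns were assigned to a sample.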

Additional observations from a re-analysis of the deposited data

How the results depend on the processing

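Over all alternatives run, 1687 of 1764 refitted member fold changes kept both their direction and their side of the threshold. Few were called to begin with, and most refits left out only 1 library, so a high share says little on the calls. The averaged RSL3 call of BCL6 was lost in 8 of 18 fits with 1 library left out. With the replicate block, alone or with MM1R Fer-1+RSL3 replicate 2 left out as well (an alternative chosen after seeing the data), BCL6 made 1 call in place of 0 for RSL3 in MM1R cells, RSL3 in MM1S cells and Fer-1+RSL3 against untreated MM1R cells, and no filter on low counts gave the same 1 call in these 3 comparisons. DESeq2 and a fit of only the groups compared also gave 1 call for Fer-1+RSL3 in MM1R cells. BCL6 was lost, leaving 0 calls, for RSL3 averaged under limma (FDR 0.0513) and with only the groups compared (FDR 0.0512), and for Fer-1+RSL3 in MM1S cells with only the groups compared (FDR 0.0521). With no limit on the fold, 3 members in place of 1 passed for Fer-1+RSL3 averaged, and 1 in place of 0 (JCHAIN) between the lines. The causes were not tested.

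Leaving out 1 library gave 0 to 1 calls for RSL3 averaged, for Fer-1+RSL3 against untreated cells in MM1R and in MM1S cells, and between the lines. With 1 library left out, the log2 fold change with RSL3 crossed 0 for POU2AF1 (-0.11 to 0.023 in MM1R cells, -0.20 to 0.051 in MM1S cells, -0.12 to 0.0085 averaged), and in MM1S cells for IRF4 (-0.23 to 0.092), JCHAIN (-0.13 to 0.0295), IGLL5 (-0.32 to 0.48) and MZB1 (-0.17 to 0.36). It also did so averaged for IGLL5 (-0.21 to 0.19) and MZB1 (-0.14 to 0.13). Between the lines this held for IRF4 (-0.057 to 0.22), POU2AF1 (-0.055 to 0.19), IKZF1 (-0.17 to 0.067) and BCL6 (-0.21 to 0.73), and for IRF4 between Fer-1+RSL3 and RSL3 in MM1S cells (-0.18 to 0.14). None of these passed a test with 1 library left out. The averaged RSL3 difference of IGLL5 was -0.006 with no filter, -0.0033 with the replicate block, -0.009 under limma and -0.006 with the block and without the library above. That of MZB1 was -0.0018 under RLE scaling and DESeq2, -0.0086 with no filter, -0.0042 under limma and -0.0005 with the block and without that library.

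With 3 libraries a group, the 95% interval of the averaged RSL3 difference ran from 0.07 to 0.45 on the log2 scale for PRDM1 and from 0.49 to 2.14 for BCL6, whose 14 to 186 counts limit its precision. No member was called for the interaction under the alternatives run.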
